A study of Mus musculus with 2 samples.

Results

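Glycolysis and hypoxia response genes were followed across a pair of arrays of total RNA from mouse bone. The members were 45 genes listed by their known roles, namely glycolytic enzymes, glucose and lactate transporters, and regulators and targets of the hypoxia-inducible factor (HIF). Every probe set whose only gene symbol in the platform annotation is a listed gene was taken, which gave 74 probe sets for 38 genes, of 12394 genes named in this way on the arrays. A probe set is a small group of oligonucleotides on the array whose signals are merged into 1 value for 1 transcript. The other 7 genes, Hk3, Gpi1, Eno1, Pfkfb4, Hif1an, Bnip3l and Ankrd37, were without a probe set of their own.

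One array held an allograft sample and the other an autograft sample, both labelled as femur of c57Bl/6 mice. An autograft is moved within 1 animal, whereas an allograft comes from another animal of the species. Neither the donor and recipient strains, nor the time after grafting, age, sex, number of pooled animals or graft procedure is given in the sources used here. No untreated femur was analysed here, so a difference is given only between both grafts. With 1 array per graft type there is no replicate check and no test, and the precision of every value is limited by the number of arrays. In whole tissue, fewer cells of a type and less RNA per cell cannot be told apart.

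Glycolysis splits glucose into pyruvate, and lactate dehydrogenase turns pyruvate into lactate, which leaves the cell through monocarboxylate transporters. When oxygen is short, HIF prolyl hydroxylases slow down, the HIF alpha subunit escapes destruction through the von Hippel-Lindau protein, and HIF switches on genes of glycolysis, lactate export and collagen hydroxylation. In bone this response is known from growth plate cartilage, osteoblasts and marrow, where oxygen is low.

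The member genes as a group did not lie to one side, and at the brightest probe sets the widest differences were in the lactate transporters. Values are deposited intensities on a linear scale. Intensities of at least 175, the median over both arrays, are said to clear the floor, and lower ones were set to the floor before log2 was taken. The log2 ratio is allograft over autograft at the brightest probe set of a gene. Of the 38 member genes, 32 cleared the floor in both grafts, 1 in the autograft alone and 5 in neither. Slc16a1 was at least 2-fold higher in the allograft sample and Slc16a3 at least 2-fold lower, that is 1 of 33 genes each way. Of all 7834 genes that cleared the floor in either graft, 0.868% were higher by 2-fold or more and 0.753% lower. At 1.5-fold there were 3 higher members, Slc16a1, Ldha and Pfkfb3, against a background of 4.01%, and 5 lower ones, Slc16a3, Aldoc, Ldhb, P4ha2 and Hilpda, against 6.56%. The ratio was above 0 in 17 members and below 0 in 16, while 40.4% of all genes were above 0 and 59.5% below. The median log2 ratio was 0.00 over the members and -0.08 over all genes.

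**Figure D1:**
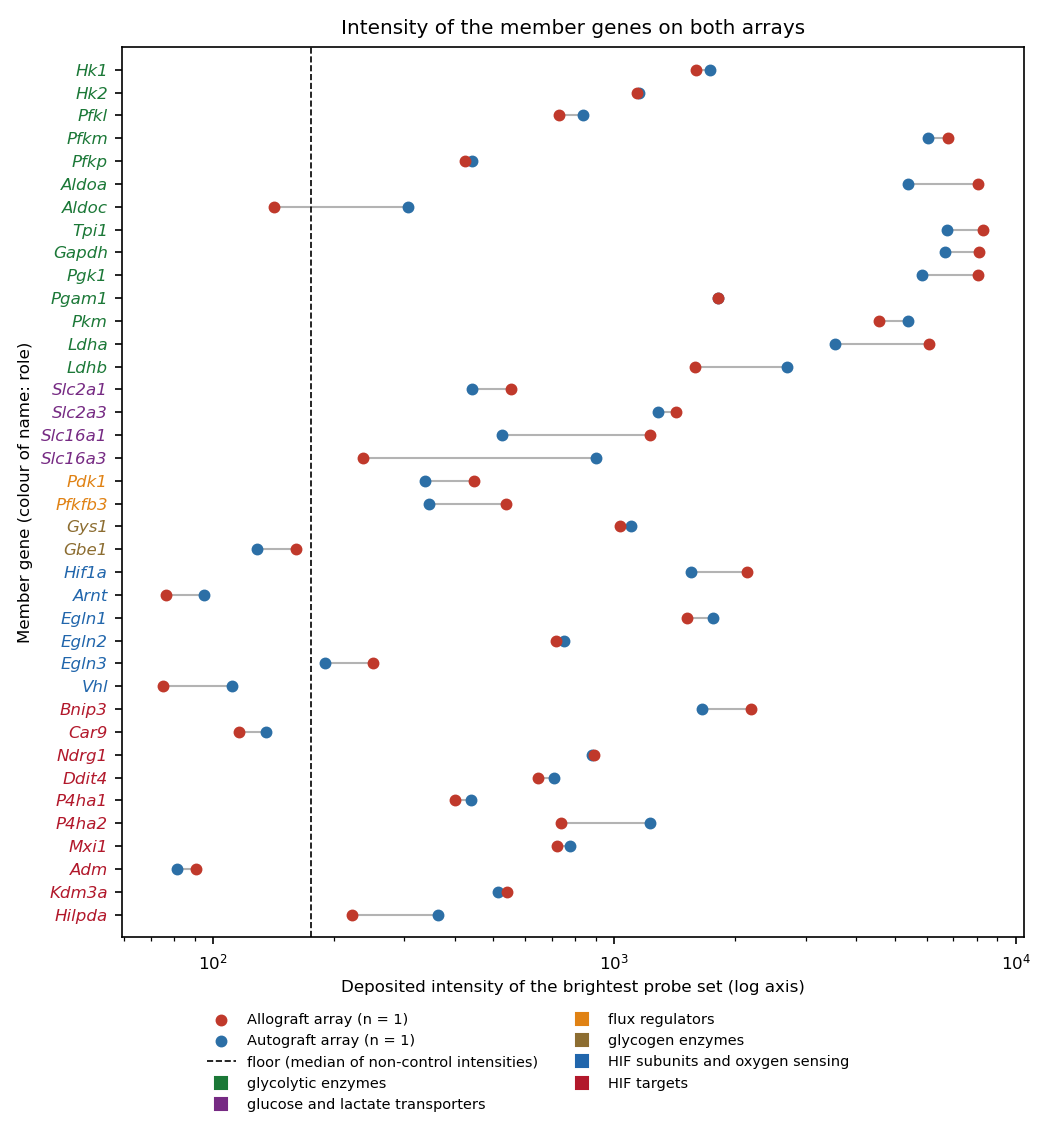
Deposited intensity of the brightest probe set of each of the 38 member genes (log axis) on the allograft array (red) and the autograft array (blue), 1 array each, with names coloured by role and the floor as a dashed line. Slc16a3 has the widest gap on this log axis (236 against 900.1), and Gbe1, Arnt, Vhl, Car9 and Adm lie left of the floor on both arrays.

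Among the transporters, the carriers of lactate went opposite ways. Slc16a1, which encodes the monocarboxylate transporter MCT1, read 1231 in the allograft and 525 in the autograft sample, a 2.35-fold difference (log2 ratio 1.23). Slc16a3, which encodes MCT4, the lactate exporter of strongly glycolytic cells and a known HIF target, read 236 in the allograft and 900.1 in the autograft sample, 3.81-fold lower in the allograft (log2 ratio -1.93). Of the 7834 genes, 33 had a higher ratio than Slc16a1 and 0 a lower ratio than Slc16a3. Their ratios lay 3.16 apart on the log2 scale, a gap of 8.94-fold. Each has 1 probe set, so neither value could be set against another probe set of the gene. On the allograft array Slc16a3 was close to the floor, and with the floor at the 75th percentile of the intensities its ratio was a bound of -0.68.

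The glucose transporters differed less. Slc2a1, the widely expressed glucose transporter GLUT1, read 555 against 441 at its brightest probe set (0.33), but its further probe sets stood at 0.06 (315 against 301) and -0.38 (254 against 331), so its direction depended on the probe set. Slc2a3, the high-affinity transporter GLUT3, read 1426 against 1286 (0.15) and, in another probe set, 768 against 577 (0.41). Both of these are marked as open to cross-matching with other transcripts, and its remaining probe sets did not clear the floor.

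The promoters of both lactate transporters are shown because these genes had the widest differences in the group at the brightest probe set. They come from RefSeq (GRCm38.p6) and run from 250 bases before to 50 after the start of the gene, 5′ to 3′ on its strand. Capitals mark the core of the hypoxia response element, searched as ACGTG or GCGTG on both strands. Slc16a3 lies on the plus strand of chromosome 11 (chr11:120948817-120949116) and Slc16a1 on the plus strand of chromosome 3 (chr3:104638414-104638713).
Slc16a3: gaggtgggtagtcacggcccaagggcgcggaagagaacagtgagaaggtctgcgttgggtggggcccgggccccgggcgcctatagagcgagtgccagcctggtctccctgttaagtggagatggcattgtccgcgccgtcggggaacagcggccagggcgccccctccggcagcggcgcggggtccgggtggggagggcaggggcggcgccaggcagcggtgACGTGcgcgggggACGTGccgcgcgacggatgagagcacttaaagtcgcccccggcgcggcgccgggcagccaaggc
Slc16a1: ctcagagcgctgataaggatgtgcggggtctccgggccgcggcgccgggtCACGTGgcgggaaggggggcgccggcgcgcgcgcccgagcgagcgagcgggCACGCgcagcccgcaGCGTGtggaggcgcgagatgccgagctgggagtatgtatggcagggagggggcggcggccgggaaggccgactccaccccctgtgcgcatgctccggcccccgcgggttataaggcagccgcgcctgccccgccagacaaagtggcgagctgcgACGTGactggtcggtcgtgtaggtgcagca
The window of Slc16a3 held 2 cores, which began 27 and 14 bases before the start. That of Slc16a1 held 5, with the outermost 200 bases before and 21 bases after the start. The first pair of these is a single CACGTG, which reads as a core on each strand and is also the binding motif of E-box proteins. Both promoters held the core, as did 61.9% of the promoters of all genes above the floor. Its part in the ratio of either gene was not tested.

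Of the glycolytic enzymes, 14 genes were on the arrays, 7 with a ratio above 0 and 7 below, and none was 2-fold apart at its brightest probe set. Their median log2 ratio was -0.01. The intensities of 7 of them fell in the brightest of 20 equal bins of genes, where the median ratio of all genes was 0.26 and 80.4% of genes were above 0. A ratio near 0.26 was therefore the middle of genes of like intensity.

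Upper glycolysis read alike on both arrays. Hexokinase genes, whose enzymes trap glucose in the cell, stood at 1596 against 1736 for Hk1 (-0.12) and 1137 against 1153 for Hk2 (-0.02). Of the phosphofructokinase genes, which encode the committed step, the muscle form Pfkm read 6795 against 6063 (0.16), the liver form Pfkl 729 against 837 (-0.20) and the platelet form Pfkp 424 against 442 (-0.06). A further probe set of Pfkl stood at -0.08. Pfkm was the only one of these with a ratio above 0, and it stood below 0 after quantile normalization (-0.12), when the trend with intensity was removed (-0.08) and against the median of its intensity bin (-0.09).

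Aldolase cleaves fructose bisphosphate, and its genes diverged. Aldoa, the form of muscle and most tissues, read 8080 against 5403 at its brightest probe set (0.58) and 7487 against 3926 at the next (0.93). Its dimmer probe sets read 2208 against 499 (2.15) and 1795 against 378 (2.25). All 4 were higher in the allograft sample, with log2 ratios from 0.58 to 2.25. All 4 also have names that mark them as open to cross-matching with other transcripts. Aldoc, the form best known from brain, read 142 in the allograft and 306.5 in the autograft sample, which is at least 1.75-fold higher in the autograft. The second Aldoc probe set did not clear the floor.

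Of the enzymes after aldolase, Tpi1, Pgk1 and Gapdh lay above 0 and Pkm below, but Tpi1 and Gapdh stood at -0.02 and -0.04 after quantile normalization. Tpi1, triosephosphate isomerase, read 8297 against 6755 (0.30), with further probe sets at 0.31 and 0.20. Pgk1, phosphoglycerate kinase, read 8061 against 5843 (0.46), with further probe sets at 0.31 (7179 against 5794) and 0.91 (1301 against 693). Pgam1, phosphoglycerate mutase, was equal on both arrays (1813 and 1810.2). Pkm, the pyruvate kinase of muscle and most other tissues, stood the other way, at 4564 against 5393 (-0.24), and the median of its intensity bin was 0.26. After quantile normalization Aldoa stood at 0.29 and Pgk1 at 0.17.

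Gapdh, glyceraldehyde phosphate dehydrogenase, was read for itself only by the array's 3 control probe sets along the transcript. The 5′ probe set read 8122 against 6671 (0.28) and the middle one 6617 against 5048 (0.39), whereas the 3′ probe set read 1577 against 233 (2.76). The ratio of 3′ to 5′ intensity, commonly used as a measure of RNA quality, was 0.194 on the allograft and 0.0349 on the autograft array, which restates the 3′ value. On both arrays the 3′ probe set read far lower than the 5′ one, so these ratios are not read as RNA quality here. For beta-actin, read by separate controls, the ratio of 3′ to 5′ intensity was 1.77 and 1.19. The 3′, 5′ and middle probe sets of beta-actin had log2 ratios of 0.61, 0.04 and -0.54, so they differed in direction. The middle one read 736 in the allograft and 1067 in the autograft sample. The part of RNA quality in the Gapdh values was not tested. Aldoa and Gapdh were the other members with a probe set at least 2-fold apart, and their promoters are shown for that reason, both on the minus strand, Aldoa at chr7:126799205-126799504 and Gapdh at chr6:125165724-125166023.
Aldoa: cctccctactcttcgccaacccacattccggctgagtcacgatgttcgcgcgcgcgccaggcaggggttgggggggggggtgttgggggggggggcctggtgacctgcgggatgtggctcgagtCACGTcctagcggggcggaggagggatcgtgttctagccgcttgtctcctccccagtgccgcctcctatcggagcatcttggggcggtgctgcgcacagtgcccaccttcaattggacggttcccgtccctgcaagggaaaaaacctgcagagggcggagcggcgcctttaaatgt
Gapdh: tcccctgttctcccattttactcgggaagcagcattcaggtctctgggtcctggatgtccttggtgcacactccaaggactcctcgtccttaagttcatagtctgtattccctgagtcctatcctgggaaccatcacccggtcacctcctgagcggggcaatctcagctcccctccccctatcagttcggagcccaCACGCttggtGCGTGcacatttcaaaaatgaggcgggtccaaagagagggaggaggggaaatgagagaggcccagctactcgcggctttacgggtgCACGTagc
Aldoa has 3 promoters in the table, and the first of those with the most cores is shown, with 1 core 126 bases before the start. The window of Gapdh held 3, which began 54 and 44 bases before and 43 bases after the start.

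The lactate dehydrogenase genes formed a second opposed pair. Ldha, whose subunit favours lactate formation and which is a known HIF target, read 6079 against 3551 (0.78, 1.71-fold higher in the allograft), and 156 of the 7834 genes had a higher ratio. It has 1 probe set, and the median of its intensity bin was 0.26. Ldhb, the subunit of heart and other oxidative tissues, was lower in the allograft at all 4 of its probe sets. They read 1587 against 2698 (-0.77), 1666 against 2162 (-0.38), 1166 against 2062 (-0.82) and 870.1 against 1348 (-0.63). The ratios of Ldha and Ldhb lay 1.54 apart on the log2 scale, or 2.91-fold. Both kept their direction in the alternative settings, from 0.57 to 0.84 for Ldha and from -0.77 to -0.63 for Ldhb.

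**Figure D2:**
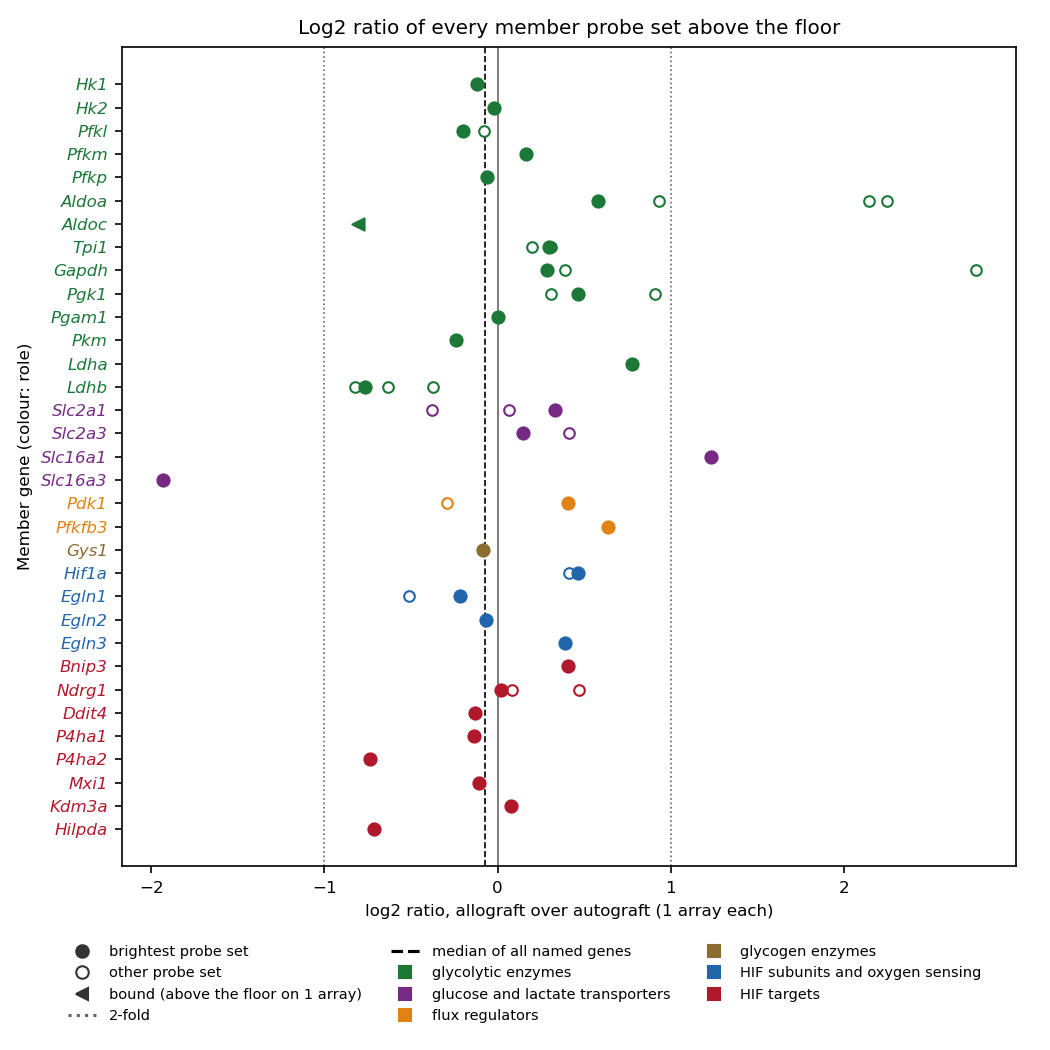
Log2 ratio of allograft over autograft (1 array each) for every member probe set that cleared the floor in either graft, with filled symbols for the brightest probe set of a gene, open ones for its others, a triangle for a bound, dotted lines at 2-fold and a dashed line at the median of all named genes (-0.08). The 4 probe sets of Ldhb all lie left of 0, those of Aldoa spread from 0.58 to 2.25, and those of Slc2a1 and Pdk1 lie on both sides of 0.

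Regulators of flux were above 0 at their brightest probe sets. Pfkfb3, which makes the activator of phosphofructokinase, read 537 against 346 (0.63), and the second probe set did not clear the floor. Pdk1, a kinase that inhibits pyruvate dehydrogenase, is a known HIF target. It read 448 against 338 (0.41) at one probe set and 316.5 against 387.5 (-0.29) at the other, so no direction can be given. Gys1, the glycogen synthase of muscle, was close to equal at 1035 against 1099 (-0.09). Gbe1, the glycogen branching enzyme, did not clear the floor (161 and 129).

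Of the HIF subunits and oxygen sensors, Hif1a was higher in the allograft sample and the hydroxylase genes were split. Hif1a, the oxygen-labile alpha subunit, read 2147 against 1556 (0.46) and 793 against 596 (0.41) at separate probe sets, and 2 more were below the floor. Egln1, which encodes the main HIF prolyl hydroxylase PHD2, was lower at both of its probe sets, at 1517 against 1765 (-0.22) and 370.1 against 528 (-0.51). Egln2, encoding PHD1, read 714 against 748 (-0.07), and it stood at 0.01 once the trend with intensity was removed. Egln3, encoding PHD3 and itself a HIF target, read 249.9 against 191 (0.39), with its other probe set below the floor. Arnt, the stable partner of the alpha subunit, and Vhl, which marks that subunit for destruction, did not clear the floor, Arnt at 76.3 and 95.2 and Vhl at 75.3 and 111. No ratio is given for them.

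The members grouped as HIF targets lay on both sides of 0, with 3 above, 5 below and a median of -0.12 over the 8 genes that cleared the floor. Slc16a3, Ldha, Pdk1 and Egln3, named above as HIF targets, were grouped under other roles and are not in this count. Genes of glycolysis that HIF switches on are likewise under other roles. The count therefore does not cover all HIF targets among the members. Bnip3, a mitophagy receptor, was the highest at 2186 against 1651 (0.40). P4ha2, a subunit of the collagen prolyl hydroxylase, was the lowest at 739 against 1231 (-0.74), while its sister gene P4ha1 read 400.2 against 439 (-0.13). Hilpda, which promotes lipid droplets under low oxygen, read 221.5 against 363 (-0.71). Of the 7834 genes, 234 had a lower ratio than P4ha2 and 269 a lower one than Hilpda.

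The remaining targets read nearly alike. Ddit4, an inhibitor of mTORC1 signalling, read 647 against 708 (-0.13), Mxi1, an antagonist of Myc, 722 against 776 (-0.11), and Kdm3a, a histone demethylase, 539 against 512 (0.07). Ndrg1, a stress response gene, read 892 against 879 at its brightest probe set (0.02), with further ones at 0.47 (895 against 647) and 0.08 (197 against 186). Car9, the carbonic anhydrase often used as a marker of hypoxia, was below the floor at 116 against 136, and so was Adm, which encodes the vessel-dilating peptide adrenomedullin, at 91.0 against 81.6.

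Across the group, probe sets of a gene mostly had the same direction. Of the 12 members with at least 2 probe sets that cleared the floor in both grafts, 7 had all of them above 0, 3 all below 0 and 2, Slc2a1 and Pdk1, on both sides. The brightest and the next probe set had the same sign in 11 of 12 members, against 60.8% of 1927 genes in all. This comparison was not matched for intensity. The 12 members include Aldoa, Gapdh, Pgk1 and Tpi1 from the brightest bin, where 80.4% of all genes were above 0. The ratios of the brightest and the next probe set differed with an SD of 0.34 in the members and 0.44 in all genes. Over all probe sets of the gene, however, Gapdh spanned 2.47 and Aldoa 1.67 on the log2 scale. A gap smaller than the SD of 0.34, as between Hk1 and Hk2 (0.10) or Pfkl and Pfkp (0.14), is within the disagreement of probe sets on the same arrays. Counted by probe set, 4 of the 53 that cleared the floor in both grafts were at least 2-fold higher (background 1.04%), which were 2 of Aldoa and 1 each of Gapdh and Slc16a1. That of Slc16a3 was the 1 at least 2-fold lower (0.654%).

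The central 95% of all 7834 genes had log2 ratios from -0.79 to 0.70. Slc16a1 and Ldha lay above this range, Slc16a3 and Aldoc below it, and the other 29 members inside.

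**Figure D3:**
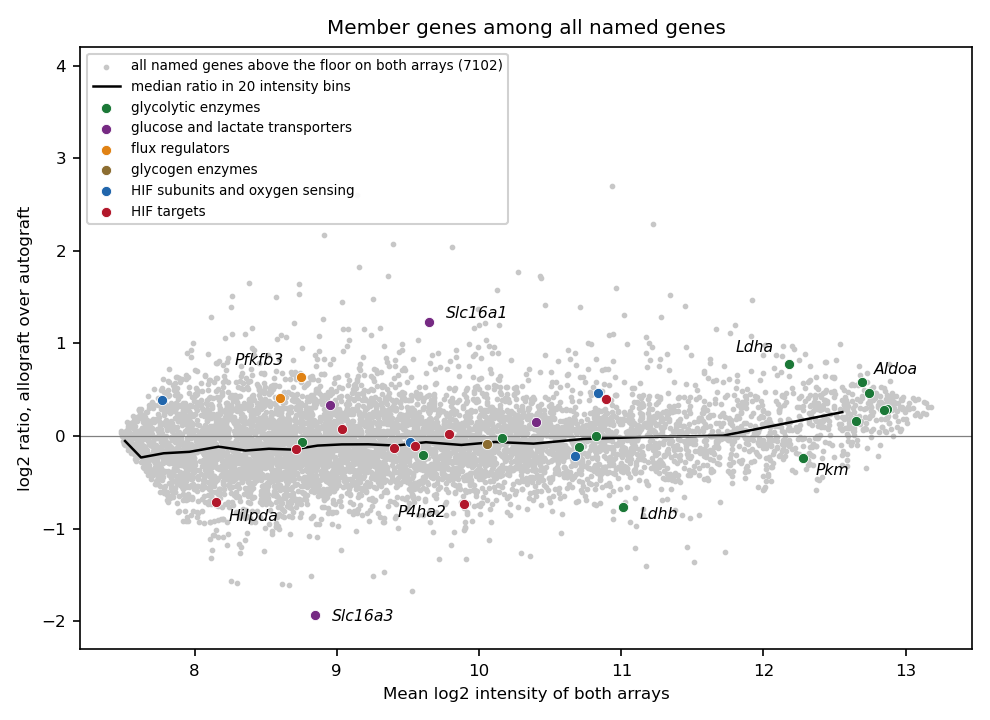
Log2 ratio of allograft over autograft against mean log2 intensity for the 7102 named genes that cleared the floor in both grafts (grey, 1 array per graft), the member genes in the colour of their role, and the median ratio over 20 intensity bins of genes that cleared it in either graft (black). Slc16a3 is the lowest point of all at -1.93, and the black line climbs to 0.26 at the bright end, where Aldoa, Ldha and Pkm lie.

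Promoters of 36 of the 38 members were matched by symbol. A core (ACGTG or GCGTG on either strand) was found in 38 of the 48 promoters of members above the floor (79.2%), in 61.9% of the 8262 promoters of all genes above the floor and in 43.8% of all 32851 promoters of the same length. For ACGTG alone the shares were 58.3%, 25.5% and 19.6%, and CACGTG, which contains it, was in 14.6%, 9.83% and 7.15%. Part of the group was listed for being HIF targets, so these shares describe the list.

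The neighbouring pathways were read from lists of 102 further genes, 65 of which cleared the floor in either graft. None was at least 2-fold higher, against 0.868% of all genes, and 1 was at least 2-fold lower, against 0.753%. The median of the 65 was -0.06 against -0.08 for all genes. The 1 at least 2-fold lower was Pdk4, the pyruvate dehydrogenase kinase of fasting and fat use, at 1862 against 4274 (-1.20). At their brightest probe sets, the other 6 pyruvate dehydrogenase genes stood between -0.27 (Pdk3) and 0.10 (Dld), with Pdhb next to the highest at 0.07. Further probe sets stood at -0.63 for Pdha1, -0.42 for Pdhb, and 0.01 and 0.27 for Dlat. Among isoforms and side enzymes of glycolysis the median was -0.05 over 8 genes. Bpgm, which makes the red cell regulator bisphosphoglycerate, was highest at 2981 against 1493, just under 2-fold, with further probe sets at 1.75 and 0.47. The muscle forms Pgam2 (6302 against 4640, 0.44) and Eno3 (8711 against 6421, 0.44) followed, and Adpgk, an ADP-dependent glucokinase, and Pklr, the pyruvate kinase of liver and red cells, were lowest at -0.85 and -0.27. A second probe set of Adpgk stood at 0.27.

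Of all genes, 40.4% were above 0 and 59.5% below, which is the background for the counts by sign in these lists. Pentose phosphate enzymes were above 0 in 5 of 6 genes, with a median of 0.27. Taldo1, transaldolase (2237 against 1358, 0.72), and Tkt, transketolase (0.49), were at the upper end and Pgls (-0.48) and Rpia (0.25) at the lower. Glycogen breakdown genes had 6 of 11 above 0 and a median of 0.04, from Pygl (0.52) and Pygm (0.48), the phosphorylases of liver and muscle, to Pygb (-0.41) and Phka2 (-0.53). Other sugar and monocarboxylate carriers had 5 of 6 below 0 and a median of -0.28, with Slc2a8, a glucose transporter of cell organelles (-0.72), and Bsg, basigin, the chaperone that brings Slc16a1 and Slc16a3 proteins to the membrane (2807 against 3658, -0.38), lowest and Slc16a6 (0.33) and Mpc1 (-0.01) highest.

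Other HIF regulators had 6 of 8 below 0, against 59.5% of all genes. Their median was -0.20, from Siah2 (-0.45) and Crebbp (-0.41) to Elob (0.15) and Eloc (0.27). Epas1, which encodes HIF-2 alpha, did not clear the floor (71.8 and 60.7). Other hypoxia targets were split, 9 above 0 and 10 below, with a median of -0.03. Their ends were Vegfa, the vessel growth factor (-0.68), and Bhlhe40, a clock-linked repressor (-0.60), against Ppp1r3c, a glycogen targeting subunit (0.51), and Hmox1, heme oxygenase (0.36).

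The defining markers of bone were present on both arrays but differed widely between them. Of the osteoblast and matrix genes, Col1a1, type I collagen, stood highest at 2.70, the highest ratio of all named genes, and Sparc, osteonectin, at 1.46. The other probe set of Col1a1 read 2736 in the allograft sample and only 31.3, below the floor, in the autograft sample. That of Sparc read 5195 against 942 (2.46). The size of both differences thus depended on the probe set. Omd, osteomodulin (-1.27), and Alpl, alkaline phosphatase (-1.25), were lowest. Ibsp, bone sialoprotein, read nearly alike at its brightest probe set (8109 against 7811), but 2242 against 3315 (-0.56) at its other. The osteoclast genes ran from Acp5 (0.97) and Ctsk (0.31) to Oscar (-0.95) and Ocstamp (-1.46). Skeletal muscle markers were above 0 in 9 of 11 genes, with a median of 0.41 and a summed intensity of 55729 against 40858. Genes of sugar use that muscle is known to express lay on both sides of 0. Aldoa, Ldha, Pgam2, Eno3, Pygm, Ppp1r3c (0.51), Pgk1 (0.46) and Phka1 (0.28, with further probe sets at 0.25 and 0.25) were above it. Slc2a4, the insulin-responsive glucose transporter (-0.31), Pkm (-0.24), Phkg1 (-0.19), Gys1 (-0.09) and Fbp2 (-0.03) were below, and Pfkm depended on the scaling. These genes are a choice made after the values were seen. Erythroid markers were above 0 in 9 of 9, with a median of 0.92 and sums of 27797 and 14465. Of the enzymes known from red cells, Bpgm was above 0 and Pklr below. Neutrophil markers were above 0 in 11 of 11 (median 0.33, sums 55169 and 43263), and fat markers in 5 of 5 (1.15, 25986 and 15894). Over all genes 40.4% were above 0, but in the brightest bin 80.4% were, with a median of 0.26, and that bin held 5 of the 11 muscle and 5 of the 11 neutrophil markers. Cartilage markers were below 0 in 8 of 9 (-0.65, 21191 and 26209), and osteoclast markers in 4 of 7 (-0.61, 24886 and 21788). Osteoblast and bone matrix markers were below 0 in 5 of 9 (-0.60, 29993 and 24227), endothelial markers in 6 of 7 (-0.31, 3174 and 3805) and macrophage markers in 3 of 8 (0.13, 22281 and 18875). No marker was listed at 0 at its brightest probe set, and Cxcr2, Cidec, Calcr, Tie1, Sox9, Matn1 and Col9a2 did not clear the floor. The part of cell makeup in the members' values was not tested.

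**Figure D4:**
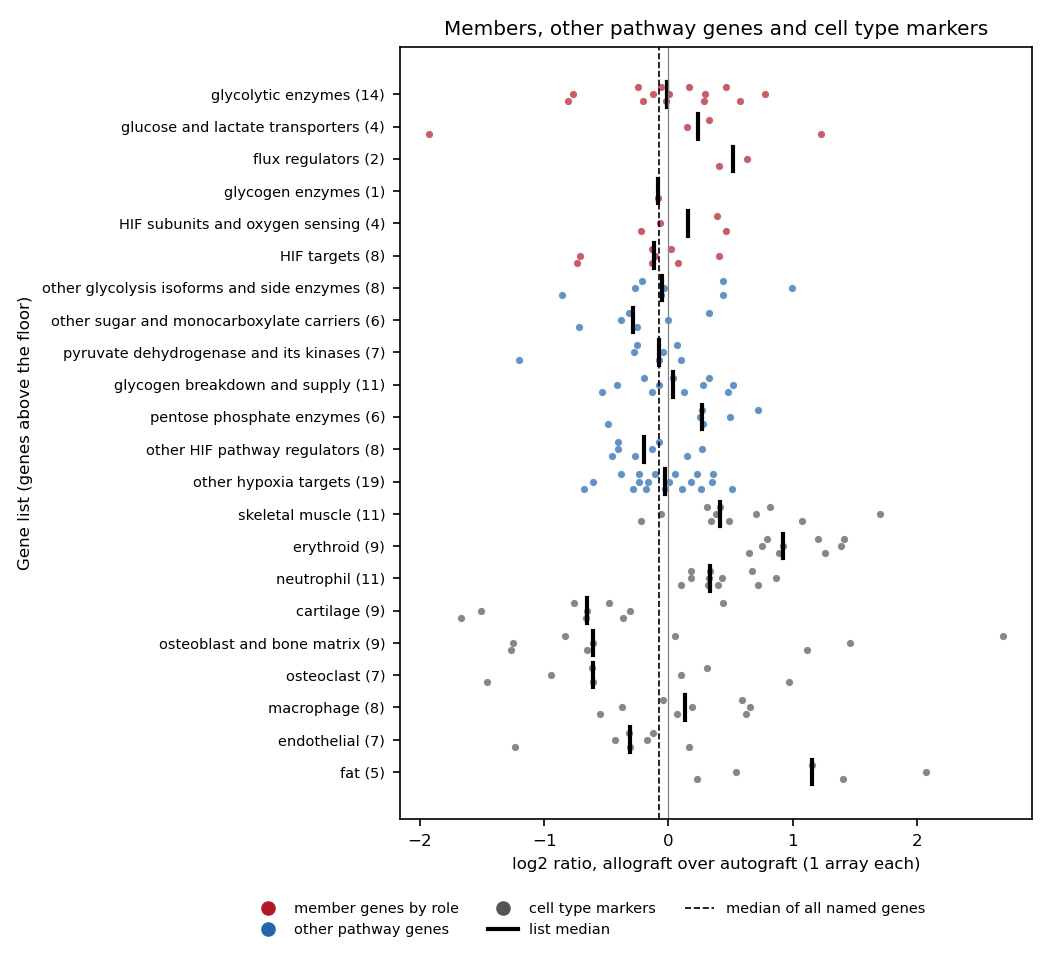
Log2 ratio of allograft over autograft (1 array each) for member genes by role (red), other pathway genes (blue) and cell type markers (grey) that cleared the floor in either graft, their number in brackets, with the list median as a black bar and the median of all named genes (-0.08) as a dashed line. The role medians of the members lie between -0.12 for HIF targets and 0.52 for flux regulators. By dimmest probe sets the latter are Pdk1 alone, at -0.29. The marker medians run from -0.65 for cartilage to 1.15 for fat.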

How the data were processed

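Intensities of 22690 probe sets on 2 arrays were used as deposited by the authors. How they were computed (software, background correction, scaling) is not given in the sources used here. The 2% trimmed means of 500.2 and 500.1 show a common scale. Genes were named from probe sets with 1 symbol in the platform annotation (20393, of which 13 are controls), since the rule for members takes in the Gapdh controls; 691 probe sets with several symbols and 1606 not listed were left unnamed. A gene was represented by its brightest probe set. The floor was the median of non-control intensities (175.2), with 48.9% of them above it on the allograft and 51.1% on the autograft array.

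The members and lists were chosen with earlier results of these data known. All members are named. Of the other pathway lists and of the osteoblast and osteoclast markers, the 2 highest and 2 lowest ratios are named. Further genes were chosen after their values were seen. The other marker lists are given by counts, medians and sums, without their highest and lowest genes. Promoters of members at least 2-fold apart at any probe set are printed. Alternatives were other normalizations, centrings, floors, probe set rules and thresholds. The gene step was run on simulated data with large changes in bright genes only, which does not cover genes near the floor. Python 3.11.15, numpy 2.4.6, pandas 2.3.3, statsmodels 0.14.6 and matplotlib 3.10.9 were used.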

Additional observations from a re-analysis of the deposited data

Results flagged for a closer look

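Probe sets that name a member together with other genes were outside the comparison, and 3 of them were at least 1.5 times as bright on the allograft array while above the floor there. Those of Bnip3l, a mitophagy receptor and HIF target, also match its pseudogene. One read 1954 against 1220.0 (log2 ratio 0.68) and another 413 against 244 (0.76), while the last probe set of Bnip3l, not past 1.5-fold, read 2369 against 1702 (0.48), so all 3 were higher in the allograft sample. A probe set that matches Gapdh and 4 other symbols read 255 in the allograft and is listed at 0 in the autograft sample, which is a bound of 0.54 against the floor. Another probe set of Gapdh and a pseudogene read 685 against 881.5 (-0.36).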

How the results depend on the processing

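At least 2-fold higher members numbered 1 at the brightest probe set, 3 by a gene's mean or its dimmest probe set (Slc16a1, Aldoa and Gapdh), 3 at a threshold of 1.5-fold and 0 at 4-fold. At least 2-fold lower members numbered 1, but 2 with the floor at the 25th percentile or with no floor and log2 of intensity plus 16 (Aldoc besides Slc16a3), 0 with the floor at the 75th percentile, 5 at 1.5-fold and 0 at 4-fold. Slc16a1 stood between 1.13 and 1.30 over the 11 alternatives. The members' median stayed between -0.04 and 0.07, but medians of small roles changed sign. Flux regulators stood at 0.52, 0.19 by the mean and -0.29 by the dimmest probe set, and transporters at 0.24 and -0.38 by the dimmest. HIF subunits and sensors stood at 0.16, -0.29 by the dimmest and -0.14 with the 25th percentile as floor. These medians do not cover the same genes. By the dimmest probe set Pfkfb3, Slc2a3, Hif1a and Egln3 dropped out, which left Pdk1 as the only flux regulator. The lower floor let in Arnt and Vhl. In the mean, a probe set below the floor on both arrays counts as a ratio of 0. Of 33 member genes, 25 kept their sign in every alternative that gave a value. The others were Egln2, Gapdh, Hk2, Pdk1, Pfkm, Pfkp, Slc2a1 and Tpi1. For a gene with 1 probe set, such as Slc16a1 or Ldha, the probe set rules could not alter the ratio. A kept sign was therefore fixed in advance in some of these alternatives. Without probe sets that can match several transcripts Aldoa and Slc2a3 had no value. The SD of the difference between the 2 brightest probe sets of a member was 0.34, and 0.22 with the floor at the 75th percentile, over 8 genes. Leaving out control probe sets, chosen after the data were seen, changed neither count. Signals near the floor limit Slc16a3, Egln3 and Hilpda. No paired analysis was possible because each graft type has 1 array, and for the same reason no replicate could be left out.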
